A study of Mus musculus with 18 samples.

Results

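The 7 genes described here encode the hormone receptors of the mammary epithelium and the nuclear proteins that work with them, and they are 7 of the 31053 features counted in the series. They were chosen by name: Esr1 (estrogen receptor alpha), Pgr (progesterone receptor), Prlr (prolactin receptor), the transcription factors Foxa1, Gata3 and Tbx3, and the transcriptional coactivator Cited1. The measurements are counts of unique molecular identifiers (UMIs, 1 per captured transcript molecule) in single cells from 18 droplet libraries, 17 of mammary epithelium and 1 of embryonic skin. Every library was made from pooled mice, so the library is the replicate and cells are not.

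The mammary duct is built of an outer basal (myoepithelial) layer and an inner luminal layer. The luminal layer holds luminal progenitors (LP), which turn into the milk-making alveolar cells in pregnancy, and mature luminal (ML) cells, which carry the steroid receptors. Estrogen acts through Esr1 and drives the lengthening of ducts at puberty, progesterone acts through Pgr and drives side branching and alveolar growth, and prolactin acts through Prlr, the kinase Jak2 and the factor Stat5a to set up milk secretion. Foxa1 opens chromatin for the estrogen receptor, Gata3 maintains luminal fate, Tbx3 is needed for the mammary bud to form, and Cited1 boosts transcription by the estrogen receptor.

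The C57BL/6 samples were the mammary rudiment at embryonic day 18.5 (E18.5) from Lgr5-GFP embryos, the skin of that age, glands at postnatal day 5 and before puberty (2.5 weeks by the labels), terminal end buds (TEBs, the growing tips) and ducts cut out by hand at 5 weeks from Ecadherin-GFP mice, and virgin adult glands at 10 weeks, each as 1 library. A single SWISS virgin adult library at 10 weeks was made too. The FVB/NJ samples were virgin adults at 10 weeks (libraries A10, P7 and D12), pregnancy day 12.5 (H and G), pregnancy day 18.5 (F4 and B4), lactation (F11 and D6, 10 days after birth by the labels), and post-involution (1 library, 3 weeks after birth by the labels and after weaning by the study's text). Adult and staged glands were sorted for CD24 and CD29 after removal of blood and endothelial cells, and the females were not staged for estrus. Because of the sort and the pooling, the numbers of cells in each class are not tissue proportions. P-values between stages weigh a stage difference against the spread between libraries of pooled mice, not between single mice.

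The filters kept 132599 of 149371 barcodes, with 9920346 to 93234616 UMIs per library and a median of 2498 UMIs per kept cell in adult P7 to 21609 in the TEB library. Any pair of libraries shared at most 2.41% of the smaller one's barcodes. Cells were clustered without the 7 genes, and clusters were named basal, LP/alveolar or ML from fixed markers that also left them out. In the 16 postnatal mammary libraries 5 to 10 of the 10 ML markers were raised in the cells called ML. The number was 9 in each FVB/NJ adult library, 6 in H and G, 5 in F4 and B4, 6 in F11 and 5 in D6. The ML name thus rests on fewer markers in pregnancy and lactation than in these adults. At E18.5, 0 of 10 ML markers and 3 of 8 LP markers were raised in the clusters that took those names, so at E18.5 the names are not supported and are used only as cluster labels. Adult P7 was the shallowest library, and its cell barcodes had 14 bases where those of the other libraries had 16, a technical difference within the adult group. Adult A10 shared 172 barcodes with pregnancy H, 4 with adult C57BL/6, 2 with adult SWISS and 0 with P7. Adult C57BL/6 shared 39 with SWISS. The pre-pubertal library shared 14 with adult C57BL/6, 12 with SWISS, 1 with ducts and 0 with TEBs. Postnatal day 5 shared 0 with the E18.5 mammary library. Comparisons of strains and of early ages thus cross libraries that share few barcodes, and what lies behind this was not tested. The filters kept only 48.6% and 68.9% of the barcodes of lactation F11 and D6, against higher shares elsewhere. Calls that change without one of these libraries are named beside the result.

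To make shares of positive cells comparable across depths, every cell was thinned at random to 2000 UMIs, shallower cells were left out, and a cell was called positive when at least 1 UMI of the gene remained. For Esr1, Pgr, Foxa1 and Tbx3 most positive cells held a single UMI, so a cell without a UMI cannot be called negative for the gene. Levels are given as CPM, the gene's UMIs summed over all cells of a class in a library and scaled to a common total. The levels of different genes are not compared, since capture differs between genes.

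The genes lie apart in the genome. In mouse build GRCm38 with the GENCODE vM21 annotation, Esr1 lies on chromosome 10 (4611593 to 5005614, plus strand), Pgr on chromosome 9 (8899833 to 8968611, plus), Prlr on chromosome 15 (10177238 to 10349180, plus), Foxa1 on chromosome 12 (57540628 to 57546916, minus), Cited1 on the X chromosome (102247381 to 102252181, minus), Gata3 on chromosome 2 (9857078 to 9890034, minus) and Tbx3 on chromosome 5 (119670669 to 119684724, plus). The 3' counting used here does not separate their transcript forms.

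Start-site windows (250 bases before to 50 after an annotated transcript start, RefSeq, GRCm38.p6) were searched on both strands for 6 short motifs of the factors named above. Windows were found for 6 of the 7 genes, 11 in all. The windows shown are those of Prlr, Esr1 and Foxa1 that held a STAT5 or FOXA motif, because Stat5a lies downstream of Prlr and Foxa1 is itself a member. Capitals mark the motif letters found, and each line runs 5′ to 3′ on the strand of the gene. The Prlr window lies at chr15:10223656-10223955 (plus), the Esr1 window at chr10:4709908-4710207 (plus) and the Foxa1 window at chr12:57546062-57546361 (minus).
Prlr, second start: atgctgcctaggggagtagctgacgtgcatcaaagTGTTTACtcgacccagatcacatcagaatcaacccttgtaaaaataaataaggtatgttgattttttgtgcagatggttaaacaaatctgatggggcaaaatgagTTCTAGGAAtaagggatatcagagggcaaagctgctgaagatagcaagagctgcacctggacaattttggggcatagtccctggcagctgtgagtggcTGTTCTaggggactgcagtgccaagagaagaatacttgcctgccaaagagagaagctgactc
Esr1, second start: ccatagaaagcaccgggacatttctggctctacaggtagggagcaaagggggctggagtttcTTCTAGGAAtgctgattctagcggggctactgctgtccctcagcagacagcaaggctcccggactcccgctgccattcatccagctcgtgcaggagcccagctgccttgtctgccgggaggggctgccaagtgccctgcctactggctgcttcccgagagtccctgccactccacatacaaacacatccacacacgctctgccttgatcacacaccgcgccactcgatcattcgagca
Foxa1, first start: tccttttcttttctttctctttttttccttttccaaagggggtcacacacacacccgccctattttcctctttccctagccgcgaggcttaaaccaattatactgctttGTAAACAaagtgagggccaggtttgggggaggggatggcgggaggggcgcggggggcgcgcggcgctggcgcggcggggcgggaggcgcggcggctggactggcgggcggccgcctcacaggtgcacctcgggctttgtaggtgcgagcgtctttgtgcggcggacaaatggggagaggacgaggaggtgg

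In the Prlr window the capitals are, in order, a FOXA motif (TGTTTAC) 215 bases before the start, a STAT5 motif (TTCNNNGAA) 110 bases before it and the short progesterone receptor motif (TGTTCT) 12 bases before it. The Esr1 window held 1 STAT5 motif, 188 bases before the start. The Foxa1 window held 1 FOXA motif, 141 bases before the start and on the opposite strand. Over 32851 windows of the same length, 3.65% held the FOXA motif, 8.3% the STAT5 motif and 19.0% TGTTCT, so a match is common and is given as a description of the sequence. A window of Cited1 held the short estrogen receptor motif AGGTCA, found in 16.3% of windows. The windows of Pgr and Gata3 held none of these motifs. The full estrogen response element, a palindrome of 13 letters with 3 of them free (in 0.07% of windows), and the GATA motif (AGATAA, in 11.2%) were in no window of the members.

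All 7 genes had their highest share of positive cells in the ML class in most postnatal libraries. For Esr1, Prlr, Foxa1, Cited1, Gata3 and Tbx3 the ML share was the highest of the 3 classes in 16 of 16 libraries. For Pgr it was the highest in 14 of 16, the exceptions being postnatal day 5 and lactation D6. These orders are descriptions, since clusters were drawn on the same cells.

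**Figure D1:**
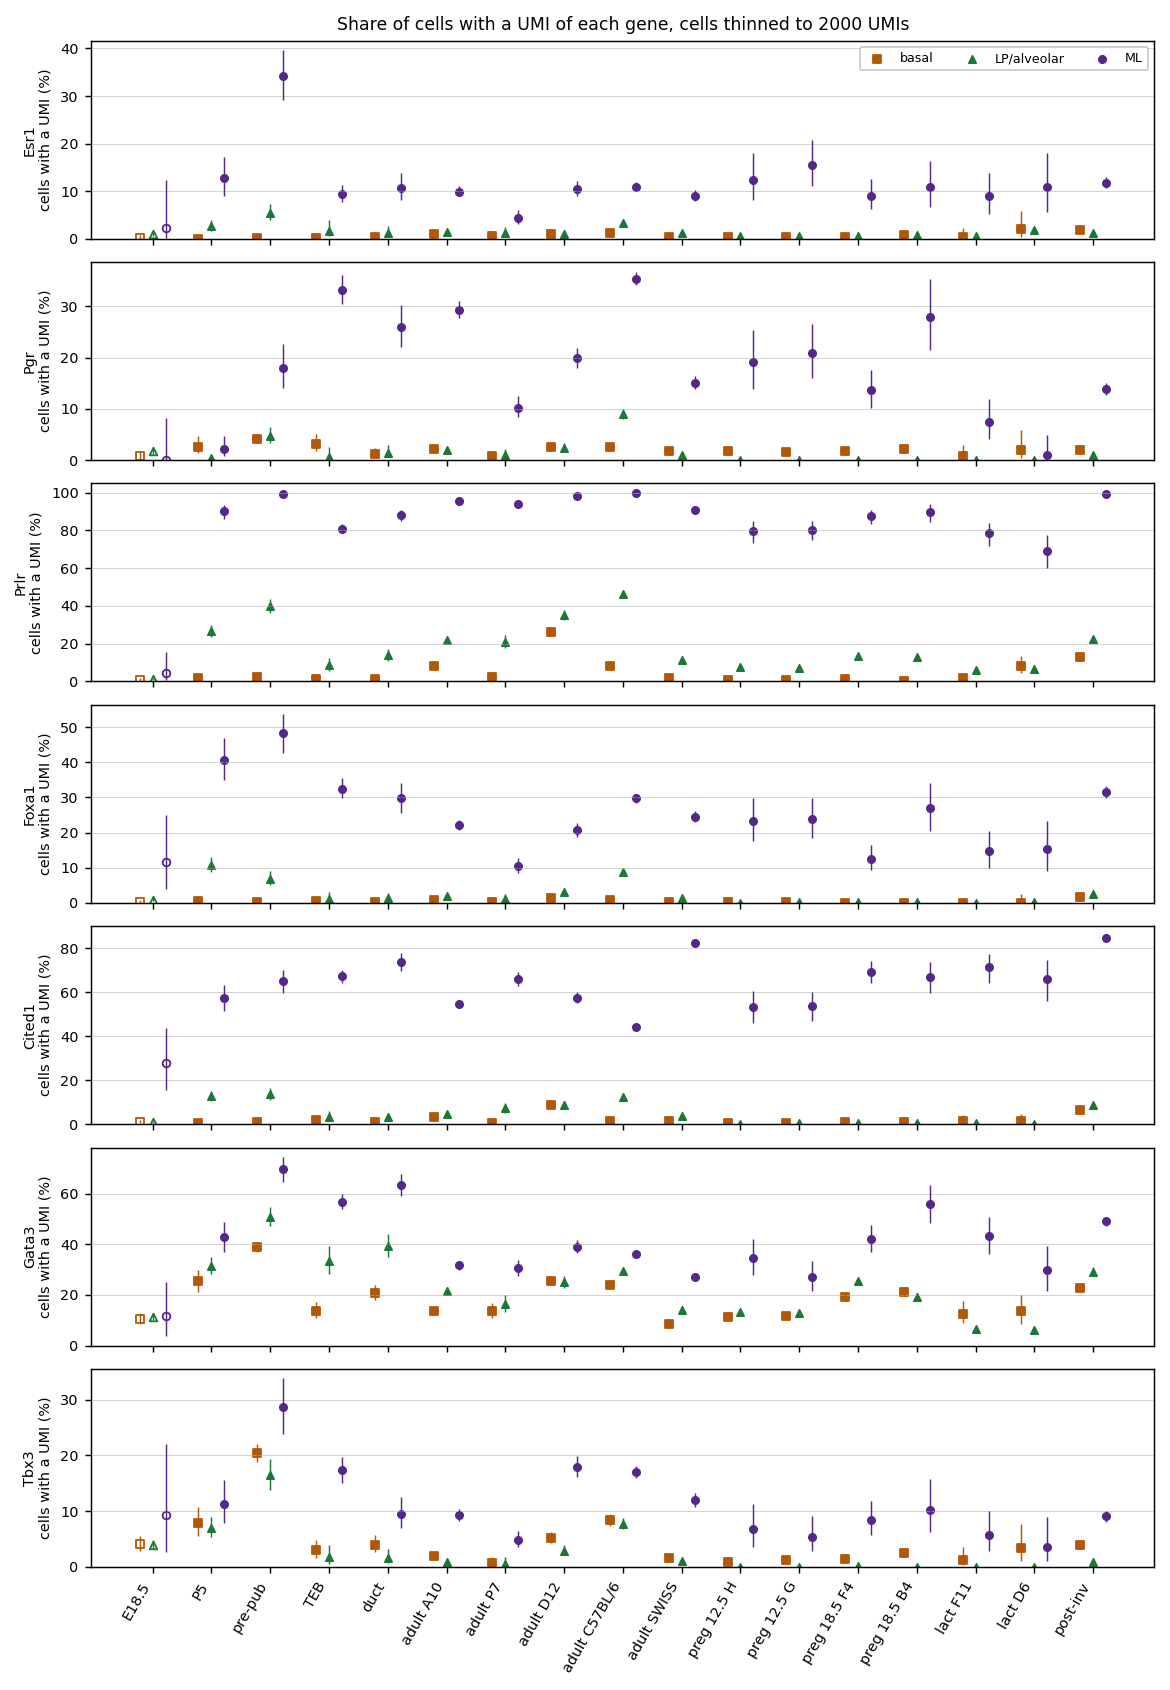
Share of cells with at least 1 UMI (percent, linear axis from 0, after thinning to 2000 UMIs) for each of the 7 genes in basal, LP/alveolar and ML cells of each mammary library, with exact binomial 95% intervals as vertical lines and open symbols at E18.5, where the class names are not supported. In the 16 postnatal libraries the ML points lie above the other classes in every library for all genes except Pgr, and Prlr reaches 99.8%.

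Esr1, the receptor that starts the estrogen response, was found in few cells at this depth even in the ML class. Its ML share ran from 4.39% in adult P7 to 34.3% before puberty, and 15 of the 16 libraries lay at 15.5% or lower. The median over libraries was 1.17% in LP/alveolar cells (range 0.492 to 5.39%) and 0.354% in basal cells (0 to 2.03%). The endothelial and immune mixture of cells stood at a median of 0.904% (0 to 3.33%) and had a median depth of 1455.5 to 3513 UMIs in the 9 libraries where it could be measured. Both epithelial medians lay inside the range of the mixture and below the median of 8.92% in fibroblasts of 8 libraries, although these medians are not over the same libraries.

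Pgr is itself a target of estrogen. Its ML share was 0.901% in lactation D6 (1 of 111 cells) and 2.18% at postnatal day 5, and 35.4% in adult C57BL/6. The LP/alveolar median was 0.798% (0 to 8.92%) and the basal median 2.01% (0.714 to 4.11%), against 1.67% in the endothelial and immune mixture. The basal share exceeded the LP/alveolar share in 12 of 16 libraries.

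Prlr was the receptor detected in most ML cells, with shares from 69.4% in lactation D6 to 99.8% in adult C57BL/6. It was also found in LP/alveolar cells, with a median of 13.6% (5.89 to 46.1%), and its median in basal cells was 1.79% (0.353 to 26.3%, the highest in adult D12). The endothelial and immune mixture had a median of 5.00% (0 to 28.1%) and fibroblasts one of 8.51%. The highest mixture value, 9 of 32 cells, came from adult C57BL/6, which also held the highest LP/alveolar share.

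Among the cofactors, Foxa1 and Cited1 were largely found in ML cells, while Gata3 was found in all 3 classes. The Foxa1 share in ML cells ran from 10.5% (adult P7) to 48.2% (before puberty), with medians of 1.21% in LP/alveolar and 0.159% in basal cells. The Cited1 share ran from 44.0% (adult C57BL/6) to 84.4% (post-involution), with medians of 3.53% and 1.24%, both below the 4.88% of the endothelial and immune mixture. Gata3 was in 27.0% to 69.8% of ML cells, but also in a median of 23.3% of LP/alveolar and 16.4% of basal cells, above the 10.9% of that mixture and the 2.11% of fibroblasts. Tbx3 was found in 3.60% to 28.7% of ML cells and was the only member whose basal share exceeded its LP/alveolar share in all 16 libraries, with medians of 2.71% and 0.857%. The mixture stood at 3.29% for Tbx3.

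The share of cells with a receptor UMI differed between the early libraries, which are 1 per stage, so their values compare libraries and not stages. At E18.5, when class names are not supported, 3.49% of the 3297 cells of the basal, LP and ML clusters together had a UMI of Esr1, Pgr or Prlr, against 32.6% of 1516 cells at postnatal day 5 and 23.6% of 3350 before puberty. In the E18.5 cells Gata3 was found in 370 and Tbx3 in 133, while Esr1 was found in 26, Prlr in 42 and Pgr in 47. The small cluster of 43 E18.5 cells that took the ML label had Cited1 in 27.9% of cells (exact binomial 95% interval 15.3 to 43.7%) and Foxa1 in 11.6% (3.89 to 25.1%), with Prlr in 4.65% (0.568 to 15.8%) and Pgr in 0 of 43 cells, which the interval allows to be up to 8.22%. All the intervals for single libraries cover counting error only, and stages with 1 library have no replicate check.

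At postnatal day 5 ML cells had Prlr and the cofactors but hardly any Pgr. Prlr was in 90.2% of 275 ML cells (86.0 to 93.4%), Cited1 in 57.5%, Gata3 in 42.9%, Foxa1 in 40.7% and Esr1 in 12.7% (9.03 to 17.3%). Pgr was in 6 of 275, or 2.18% (0.805 to 4.69%), and its ML level was 5.29 CPM (exact Poisson 95% interval 3.02 to 8.59, from 16 UMIs). Before puberty Pgr was in 18.0% of 338 ML cells (14.1 to 22.6%) at 129 CPM (119 to 139), and the intervals of these libraries do not overlap. The 1.67% seen for Pgr in the mixture of endothelial and immune cells is a median over 9 libraries, with neither of these among them. It lies inside the postnatal day 5 interval and far below the pre-pubertal one. In the postnatal day 5 library itself, Pgr was in 0.0824% of cells classed as epidermis (0.21 CPM) and 0% of those classed as Schwann cells. Both lie below the interval of its ML cells.

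The pre-pubertal library had the highest ML share of all 16 for 4 genes. Esr1 stood at 34.3% (29.3 to 39.6%) and 241 CPM there, against 28.6 to 64.1 CPM in the other postnatal libraries. The others were Foxa1 at 48.2% (42.8 to 53.7%), Gata3 at 69.8% (64.6 to 74.7%) and Tbx3 at 28.7% (23.9 to 33.8%). This was not particular to ML cells. The same library was highest for Gata3 (50.9% of LP/alveolar and 39.0% of basal cells) and Tbx3 (16.5% and 20.4%). It was also highest for Esr1 in LP/alveolar cells (5.39%). Foxa1 in both classes and Esr1 in basal cells were highest in other libraries. Pgr, in contrast, was higher in the 5-week libraries. It was in 33.2% of ML cells of TEBs (30.4 to 36.1%) and 26.0% of ML cells of ducts (22.04 to 30.2%), which were dissected from the same strain of reporter mice. The study's methods list TEBs and ducts as processed together and the pre-pubertal glands in another group. Age and processing therefore cannot be told apart here.

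TEB and duct ML cells differed in several members beyond counting error. The Prlr share was 80.9% in TEBs (78.4 to 83.2%) and 88.2% in ducts (84.9 to 91.0%), and its level was 1061 CPM against 1521 CPM. Tbx3 went the other way, with 17.3% in TEBs (15.1 to 19.7%) and 9.44% in ducts (6.94 to 12.5%). Esr1 (9.45% and 10.7%) and Foxa1 (32.5% and 29.8%) had overlapping intervals. With 1 library each, these values compare the libraries and not the structures.

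Adult virgin glands came from 3 strains. The ML level of Prlr was 5846 CPM in C57BL/6, 1633 CPM in SWISS and 1894 to 2681 CPM in the 3 FVB/NJ libraries. Cited1 ran against this order, with 497 CPM in C57BL/6, 1386 CPM in SWISS and 669 to 1308 CPM in FVB/NJ. Pgr was in 35.4% of ML cells in C57BL/6 and 15.1% in SWISS, while the FVB/NJ libraries spread from 10.2% (P7) through 19.9% (D12) to 29.3% (A10). The FVB/NJ spread for Pgr covered the SWISS value, and strain was not tested since C57BL/6 and SWISS have 1 library each. The study's methods list adult C57BL/6 and SWISS glands as processed together, in another group than the FVB/NJ adults. Between these groups strain and processing therefore cannot be told apart.

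The pregnancy cycle was tested in the FVB/NJ libraries, with edgeR's quasi-likelihood test on counts summed per library and class and Benjamini-Hochberg adjustment over all genes tested. Values in these comparisons are CPM after TMM scaling, which corrects for differences in composition between libraries. The comparisons share libraries, so they are not independent of each other.

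**Figure D2:**
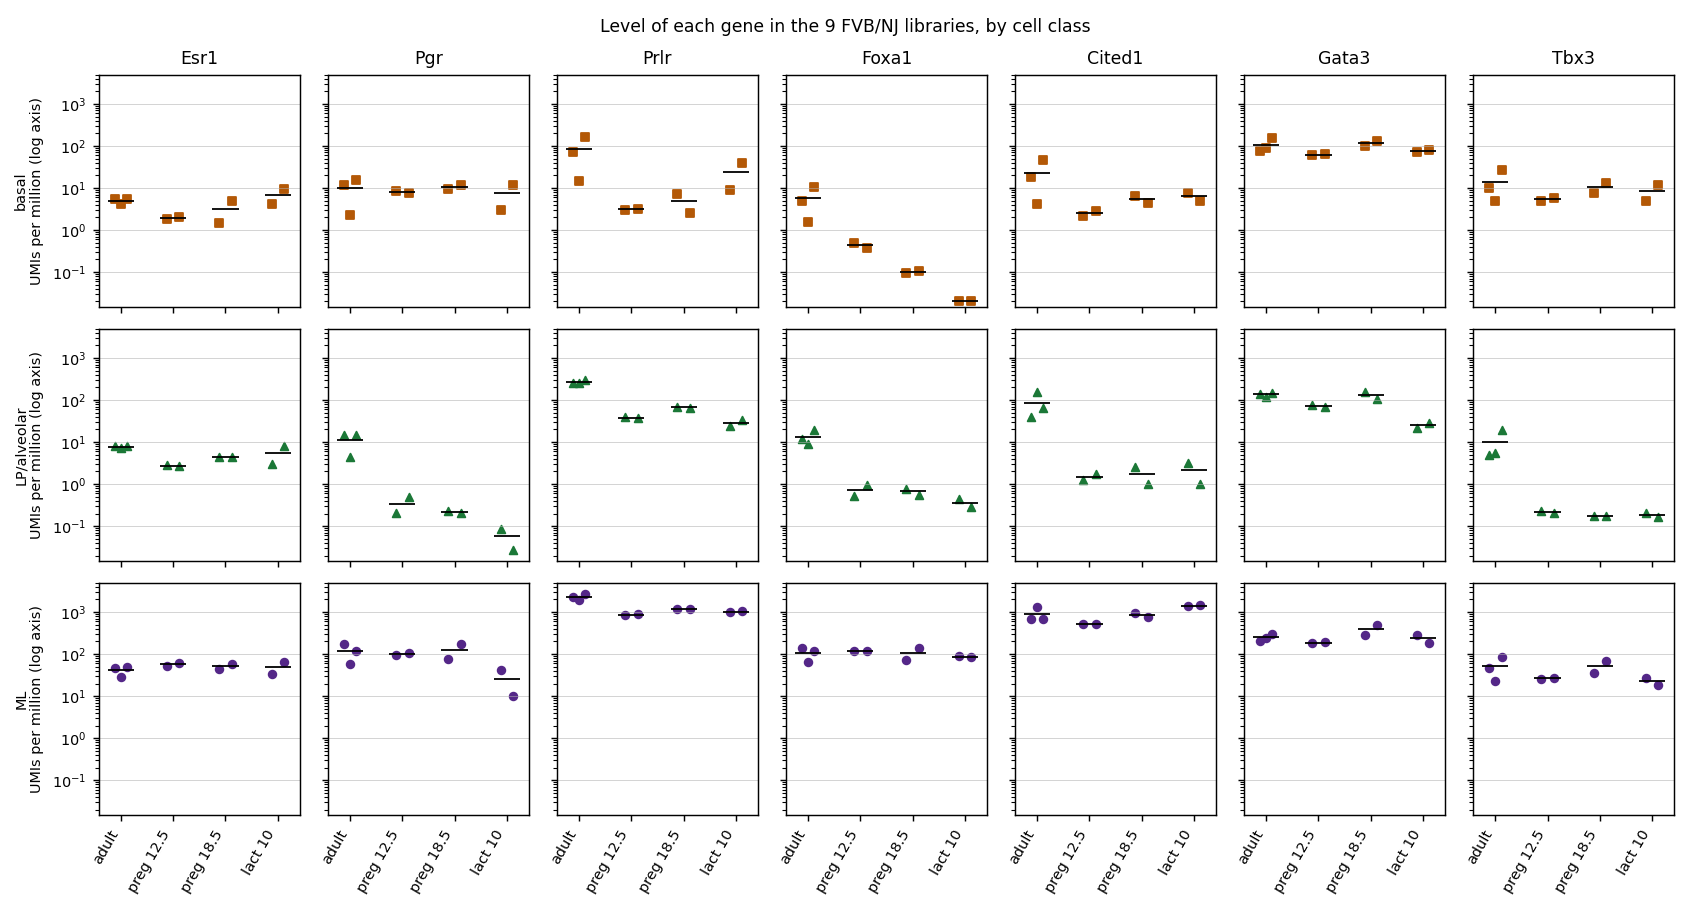
Level of each of the 7 genes (CPM, log axis, before TMM scaling) in basal, LP/alveolar and ML cells of the 9 FVB/NJ libraries; each point is 1 library, lines are stage means, and values of 0 (Foxa1 in basal cells of both lactation libraries) are drawn at 0.02. The LP/alveolar levels of Pgr, Prlr, Foxa1, Cited1 and Tbx3 lie lower at both days of pregnancy than in every adult library, and the unscaled lactation levels of LP/alveolar cells differ from the scaled ones given in the text (Prlr at 24.5 and 33.1 before scaling and 79.4 and 116 after it).

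In LP/alveolar cells 5 of the 7 genes were lower at pregnancy day 12.5 than in virgin adults. These were Pgr, Prlr, Foxa1, Cited1 and Tbx3, against 13.1% of all 13818 genes called in this comparison. The same 5 genes were lower at pregnancy day 18.5, where 20.2% of genes were called. The members' median log2 change was -3.91 at day 12.5 and -3.52 at day 18.5, against 0.03 and -0.02 over all genes.

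Pgr in LP/alveolar cells was 9.7 CPM in adult A10, 2.27 in P7 and 7.75 in D12. It was 0.143 CPM in H and 0.343 in G at day 12.5, and 0.217 in F4 and 0.218 in B4 at day 18.5. All pregnancy libraries lay below all adults, although they rested on 6 to 16 UMIs each, against 10 to 225 in the adults. The log2 change was -4.82 ± 0.70 (SE; 28.3-fold lower, adjusted p = 0.00384) at day 12.5 and -4.94 ± 0.72 (adjusted p = 0.00216) at day 18.5.

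Prlr in LP/alveolar cells fell at both days of pregnancy. It was 169, 129 and 159 CPM in adults A10, P7 and D12, then 26.8 and 25.9 CPM in H and G, 66.2 and 66.9 CPM in F4 and B4, and 79.4 and 116 CPM in lactation F11 and D6. The fall to day 12.5 was -2.53 ± 0.34 on the log2 scale (5.78-fold lower, adjusted p = 0.00293), and to day 18.5 it was -1.20 ± 0.32 (2.29-fold lower, adjusted p = 0.0269). The difference of 1.33 between day 18.5 and day 12.5 did not pass (adjusted p = 0.0928), although the groups did not overlap. The day 18.5 call did not hold when F4 (-1.18), B4 (-1.19), H (-1.19) or G (-1.19) was left out, with a change about as large. It was also lost without the cells of highest doublet score (-0.70, adjusted p = 0.157) and with no filter on low counts (-1.16, adjusted p = 0.0636).

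The coactivator gene Cited1 and the transcription factor genes Foxa1 and Tbx3 fell as well. Cited1 had levels of 26.9, 76.0 and 33.5 CPM in adults A10, P7 and D12, then 0.892 and 1.24 CPM in H and G and 2.46 and 1.05 CPM in F4 and B4 (log2 change -5.40 ± 0.73, adjusted p = 0.0029, and -4.66 ± 0.70, adjusted p = 0.00241). Foxa1 levels were 7.89, 4.54 and 10.4 CPM in A10, P7 and D12, against 0.366 and 0.664 CPM in H and G and 0.748 and 0.582 CPM in F4 and B4 (-3.91 ± 0.48, adjusted p = 0.0021, and -3.52 ± 0.48, adjusted p = 0.00153). Tbx3 went from 3.23, 2.72 and 10.3 CPM in the adults to 0.159 and 0.15 CPM in H and G and 0.169 and 0.182 CPM in F4 and B4, on 5 to 10 UMIs in each of the 4 libraries (-5.11 ± 0.69, adjusted p = 0.00298, and -4.94 ± 0.71, adjusted p = 0.00197). For all 3 genes every pregnancy library lay below every adult library. Gata3 did not pass, at 60.8 to 90.8 CPM in adults, 48.4 and 51.6 CPM at day 12.5 and 108 and 147 CPM at day 18.5 (adjusted p = 0.231 and 0.138). Esr1 was 3.63 to 5.35 CPM in adults, 1.88 and 1.94 CPM at day 12.5 (-1.24 ± 0.43, adjusted p = 0.0835) and 4.15 and 4.62 CPM at day 18.5. It passed at day 12.5 without lactation F11 (adjusted p = 0.032) or D6 (0.0363), with DESeq2 (0.0414), with no scaling beyond the total (0.0383) and with no filter on low counts (0.0272).

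Leaving out library H ended all 5 calls at day 12.5, with adjusted p values between 0.0533 and 0.0757 and log2 changes of -5.16 to -2.54, and leaving out G ended those of Prlr (-2.49, 0.0767) and Tbx3 (-5.04, 0.0561). The fit without either has a single day 12.5 library, assumed to vary like the other stages. Markers of ML cells moved in the same direction. In LP/alveolar cells 8 of the 10 ML markers were lower in each pregnancy comparison. Per total UMIs, before TMM scaling, the 10 markers summed to 728 to 1160 CPM in adults and 44.7 to 52.3 CPM at day 12.5. The sums were 26.3 to 36.0 CPM at day 18.5 and 134 to 167 CPM in lactation, with Fgb at 0 in pregnancy and lactation. The TMM factors of these cells were 1.49 to 1.99 in adults and 0.308 and 0.284 in F11 and D6. Scaling would thus lower the adult sums and raise the lactation ones. The part of the markers in the result was not tested.

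Prlr fell in basal cells too. It was 73.8, 12.1 and 147 CPM in adults A10, P7 and D12, 3.00 and 3.20 CPM in H and G, and 6.80 and 2.28 CPM in F4 and B4. The adults thus spread over a wide range but stayed above all pregnancy libraries. The log2 change was -4.65 ± 0.96 (25.2-fold lower, adjusted p = 0.0477) at day 12.5 and -4.10 ± 0.94 (17.2-fold lower, adjusted p = 0.042) at day 18.5. In basal cells 1 of 7 genes was called at day 12.5 and 2 at day 18.5, against 1.21% and 3.2% of all 13230 genes. The second was Foxa1, at 5.05, 1.24 and 9.54 CPM in the adults and 1 UMI in each of F4 and B4 (adjusted p = 0.0185). At day 12.5 Foxa1 was 0.479 and 0.367 CPM in H and G (adjusted p = 0.0619). Cited1 did not pass (log2 change -3.14 ± 0.81, adjusted p = 0.0956, and -2.18 ± 0.77, adjusted p = 0.177), nor did Esr1, Gata3 and Tbx3. At day 12.5 Foxa1 and Cited1 were both called with DESeq2 (adjusted p = 0.00142 and 0.00368), with no filter on low counts (1.86e-05 and 9.92e-09) and with at least 1000 detected genes (0.0276 and 0.0422), and Foxa1 without scaling beyond the total (0.0465). At day 18.5 Cited1 was called with no filter (1e-04).

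The basal calls were not stable to the choice of libraries. Prlr at day 12.5 was lost without H, G, F4, B4, F11, D6 or D12 (log2 change -4.69 to -3.82, adjusted p from 0.0886 to 0.534) and without the cells of highest doublet score (-4.24, 0.0768), and at day 18.5 no member was called without F4 or B4, and only Foxa1 without H, G, F11, D6 or D12. In the fits that lost Prlr at day 18.5, its log2 change ran from -5.09 (without F4) to -3.27 (without D12). Without adult P7, Prlr, Foxa1 and Cited1 were called at both days, and without A10, Prlr and Foxa1 at day 12.5. Per total UMIs, before TMM scaling, the summed ML markers in basal cells were 67.7 to 667 CPM in adults. They were 23.4 to 25.9 CPM at day 12.5 and 26.2 to 43.4 CPM at day 18.5. Of the markers, 3 of 9 tested (Areg, Cxcl15 and Fgb) were lower at each day. Their part in the result was not tested.

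Pgr in basal cells did not pass the test in either comparison. It was 11.6, 1.86 and 14.0 CPM in A10, P7 and D12, 8.27 and 7.57 CPM in H and G and 9.15 and 10.3 CPM in F4 and B4 (log2 change -0.28, adjusted p = 0.874, and 0.01, adjusted p = 0.995). The share of basal cells with Pgr was 1.83% and 1.58% at day 12.5 and 1.85% and 2.22% at day 18.5, against 0%, 0.0464%, 0.0532% and 0% of LP/alveolar cells in the same libraries. Of all Pgr-positive cells of the 3 classes, basal cells made up 68.1% and 69.6% at day 12.5 and 45.2% and 47.3% at day 18.5. In virgin FVB/NJ adults ML cells made up 78.0 to 91.0% of the Pgr-positive cells. These shares move with the sizes of the classes. Of thinned cells of the 3 classes, basal cells were 42.4% and 62.3% and ML cells 1.89% and 1.98% at day 12.5. In the adults ML cells were 30.8 to 45.2% of thinned cells. LP/alveolar cells were 55.8% and 35.7% of thinned cells at day 12.5 and 68.3% and 51.9% at day 18.5. Shallower cells are left out of these shares. In F4, 2267 of 5202 basal and 5644 of 5776 LP/alveolar cells were deep enough. For Prlr, LP/alveolar cells made up 70.3% and 56.0% of the positive cells at day 12.5 and 68.9% and 64.9% at day 18.5, against 59.9 to 87.4% held by ML cells in virgin FVB/NJ adults. Whether the basal and LP/alveolar changes of Pgr differ was not tested.

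**Figure D3:**
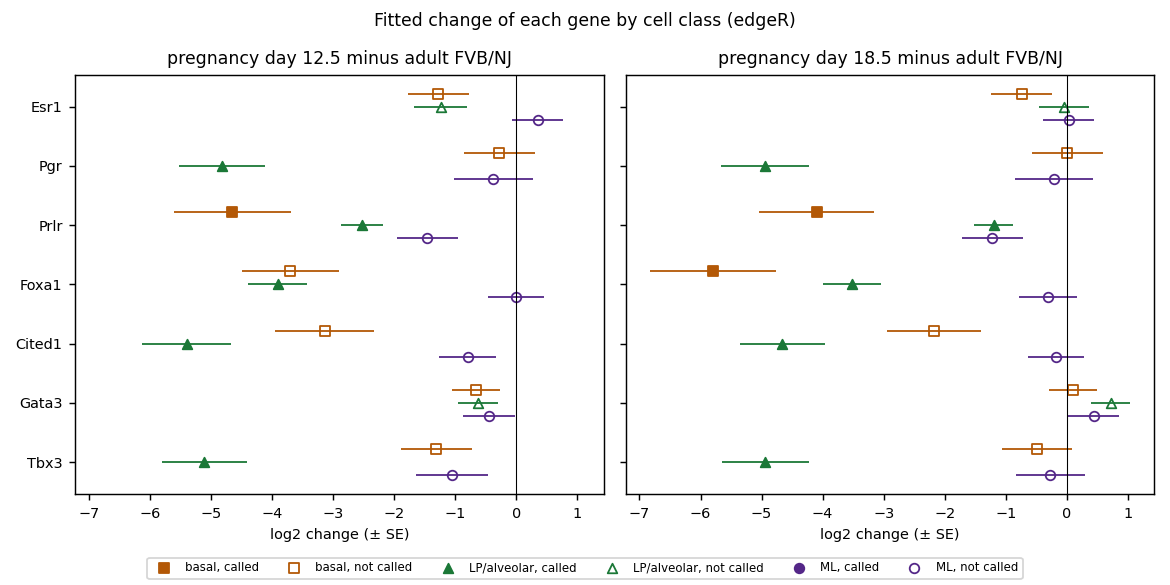
Log2 change (± SE) of each of the 7 genes from virgin FVB/NJ adults (3 libraries) to pregnancy day 12.5 and day 18.5 (2 libraries each) in basal, LP/alveolar and ML cells, with called changes (adjusted p under 0.05) marked. In LP/alveolar cells Pgr, Prlr, Foxa1, Cited1 and Tbx3 lie below 0 at both days, while in ML cells no gene is called.

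In ML cells, which carry these genes at their highest levels, none of the 7 passed the test at either day of pregnancy, against 7.29% of 9016 genes called at day 12.5 and 8.55% at day 18.5. At an unadjusted p under 0.05, 1 of the 7 and 2104 genes passed at day 12.5, and 1 of the 7 and 2154 genes at day 18.5. DESeq2 called 1 member, Prlr, at each day, among 947 and 1051 genes. Prlr was 2610, 1590 and 2670 CPM in A10, P7 and D12, 790 and 873 CPM in H and G, 979 and 995 CPM in F4 and B4, and 1410 and 1310 CPM in F11 and D6. Every adult value lay above every later one, with a log2 change of -1.46 ± 0.50 at day 12.5 (adjusted p = 0.107) and of -1.22 at day 18.5 (adjusted p = 0.167). Without adult P7, the shallowest library, Prlr passed at both days (-1.67, adjusted p = 0.00357, and -1.40, adjusted p = 0.00736), and Tbx3 at day 12.5 (-1.45, adjusted p = 0.0368).

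The ML levels of the other genes overlapped between virgin and pregnant glands or differed by less than the test could call. Pgr was 200, 49.1 and 118 CPM in the adults, 89.2 and 99.3 CPM at day 12.5 and 65.2 and 147 CPM at day 18.5. Esr1 was 24.1 to 53.4 CPM in the adults, 49.1 and 59.2 CPM at day 12.5 and 37.5 and 49.6 CPM at day 18.5. Cited1 was 667 to 1100 CPM in the adults, 482 and 487 CPM at day 12.5 and 668 and 822 CPM at day 18.5. Gata3 was 199 to 302 CPM in the adults, 171 and 188 CPM at day 12.5 and 247 and 421 CPM at day 18.5. Foxa1 was 55.2 to 158 CPM in the adults, 110 and 112 CPM at day 12.5 and 61.7 and 117 CPM at day 18.5. Tbx3 was 19.4 to 86.4 CPM in the adults, 24.6 and 26.4 CPM at day 12.5 and 44.4 CPM on average at day 18.5. For each of these genes the adult and day 18.5 ranges overlapped.

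The change from adult to pregnancy was then compared between classes in 1 fit with library as a block, chosen after the data were seen. At day 12.5 the change in LP/alveolar cells was lower than that in ML cells for Esr1, Pgr, Foxa1, Cited1 and Tbx3, 5 of 7 genes against 11.2% of all 14774. At day 18.5 the same held for Pgr, Foxa1, Cited1 and Tbx3, 4 of 7 against 18.6%. Prlr did not pass between LP/alveolar and ML cells in this test (-1.15 ± 0.60, adjusted p = 0.239, and -0.05 ± 0.59, adjusted p = 0.997), which does not show that the changes were alike, and with no filter on low counts it was called at day 12.5 (-1.11, adjusted p = 0.00114). The change in basal cells was lower than in ML cells for Esr1, Prlr and Foxa1 at day 12.5 (3 of 7 against 9.88%) and for Prlr and Foxa1 at day 18.5 (2 of 7 against 12.3%). Cited1 was called in basal cells as well at both days without adult P7 (adjusted p = 0.000689 and 0.0014) and with no filter (7.74e-12 and 2.7e-09), and at day 12.5 when cells needed 1000 detected genes (0.0316). In the same test, without H or without G only Foxa1 was called in basal cells at day 12.5, and Prlr was lost at day 18.5 without B4 (-1.96, adjusted p = 0.189) or without the cells of highest doublet score (-2.08, 0.0549). Esr1 was lost in LP/alveolar cells at day 12.5 without H (adjusted p = 0.0692) or G (0.181), and was called at day 18.5 without scaling beyond the total (-1.05, 0.0307).

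Between pregnancy day 12.5 and day 18.5 no member was called in any class. Of all genes tested, 0% were called in the basal class, 0.999% in LP/alveolar cells and 0% in the ML class. At an unadjusted p under 0.05, the members that passed numbered 0, 3 and 0, among 1151, 2327 and 645 genes. DESeq2 called 0, 2 and 0 members in these classes, Prlr and Gata3 in LP/alveolar cells, and the genes it called in all numbered 165, 863 and 70. Without adult P7, Prlr (adjusted p = 0.0206) and Gata3 (0.023) were called in LP/alveolar cells with edgeR too.

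From pregnancy day 18.5 to lactation Esr1 in LP/alveolar cells was higher. It was 4.15 and 4.62 CPM in F4 and B4 and 9.70 and 27.7 CPM in F11 and D6 (2.10 ± 0.45 on the log2 scale, 4.3-fold higher, adjusted p = 0.0359), the only member called, against 3.18% of genes. The value depends on the scaling. Milk genes took up 77.1% and 78.2% of the UMIs of these cells in F11 and D6. Per total UMIs Esr1 stood at 2.99 and 7.88 CPM in F11 and D6 against 4.31 and 4.46 CPM in F4 and B4, and without scaling beyond the total the log2 change was 0.32 (adjusted p = 0.487). Leaving out D6 ended the call (1.11, adjusted p = 0.32), as did, with a change about as large, leaving out F4 (adjusted p = 0.266), B4 (0.238), H (0.0805) or G (0.0797), requiring 1000 genes per cell (2.01, 0.0799), or dropping the most secretory cluster (2.14, 0.0854). The share of LP/alveolar cells with Esr1 was 0.511% in F11 and 1.87% in D6, against 0.638% and 0.858% at day 18.5. Per total UMIs the summed ML markers in LP/alveolar cells were 26.3 to 36.0 CPM at day 18.5 and 134 to 167 CPM in lactation. Of the 10 markers 1, Ly6a, was called higher. Their part in the Esr1 result was not tested.

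Of the genes that had fallen in LP/alveolar cells in pregnancy, Cited1 stood at 10.5 and 3.54 CPM in F11 and D6 and Tbx3 at 0.653 and 0.582 CPM, which did not pass against day 18.5 (adjusted p = 0.163 and 0.293). Cited1 was called with no filter on low counts (1.91, adjusted p = 0.000458). Pgr rested on 3 and 2 UMIs there. Prlr did not pass either (0.56, adjusted p = 0.464), and its change turned to -1.21 and was called without scaling beyond the total, where Gata3 was called too (-2.37).

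In basal and ML cells no member was called between pregnancy day 18.5 and lactation, where 0.499% and 0% of genes were called. At an unadjusted p under 0.05, 2 and 1 members passed, among 1307 and 648 genes, and DESeq2 called 0 members in either class, with 67 genes in ML cells. Cited1 in ML cells was 1960 and 1810 CPM in F11 and D6 against 822 and 668 CPM in F4 and B4, above every earlier FVB/NJ library (1.34 on the log2 scale, edgeR adjusted p = 0.591). Pgr in ML cells was 58.9 and 12.3 CPM in F11 and D6, from 37 and 6 UMIs. Milk genes took up 30.5% and 23.1% of the UMIs of ML cells in F11 and D6. After involution the ML shares were 11.8% for Esr1, 13.9% for Pgr, 99.3% for Prlr, 84.4% for Cited1, 49.1% for Gata3, 31.6% for Foxa1 and 9.07% for Tbx3, in a single library.

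Single ML cells with more than 1 of the 3 receptors were common, and Prlr was in most ML cells of every library. The share of thinned ML cells with at least 2 of Esr1, Pgr and Prlr was 14.2% at postnatal day 5, 46.4% before puberty, 34.2% in TEBs, 31.5% in ducts, 42.5% in adult C57BL/6, 21.3% in adult SWISS and 23.6% after involution. In the FVB/NJ cycle it was 25.5% ± 10.96 (SD, n = 3; 13.5 to 35.0%) in adults, 25.7% ± 2.67 (n = 2) at day 12.5, 27.3% ± 12.2 (n = 2) at day 18.5 and 11.95% ± 1.61 (n = 2) in lactation. The adults other than P7 stood at 28.1% and 35.0%. When ML cells needed 1000 detected genes, lactation F11 and D6 stood at 8.04% and 4.35%, of only 112 and 46 cells. With thinning outside the milk genes they stood at 18.0% and 15.9% (of 133 and 82 cells), above adult P7 (14.5%). The stages did not differ beyond the spread between libraries (exact two-sided permutation test over 7560 assignments, p = 0.38; the smallest p possible is 0.000794). All 3 receptors together were found in 5.92% of ML cells before puberty, 3.78% in adult C57BL/6 and 3.34% in adult A10.

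**Figure D4:**
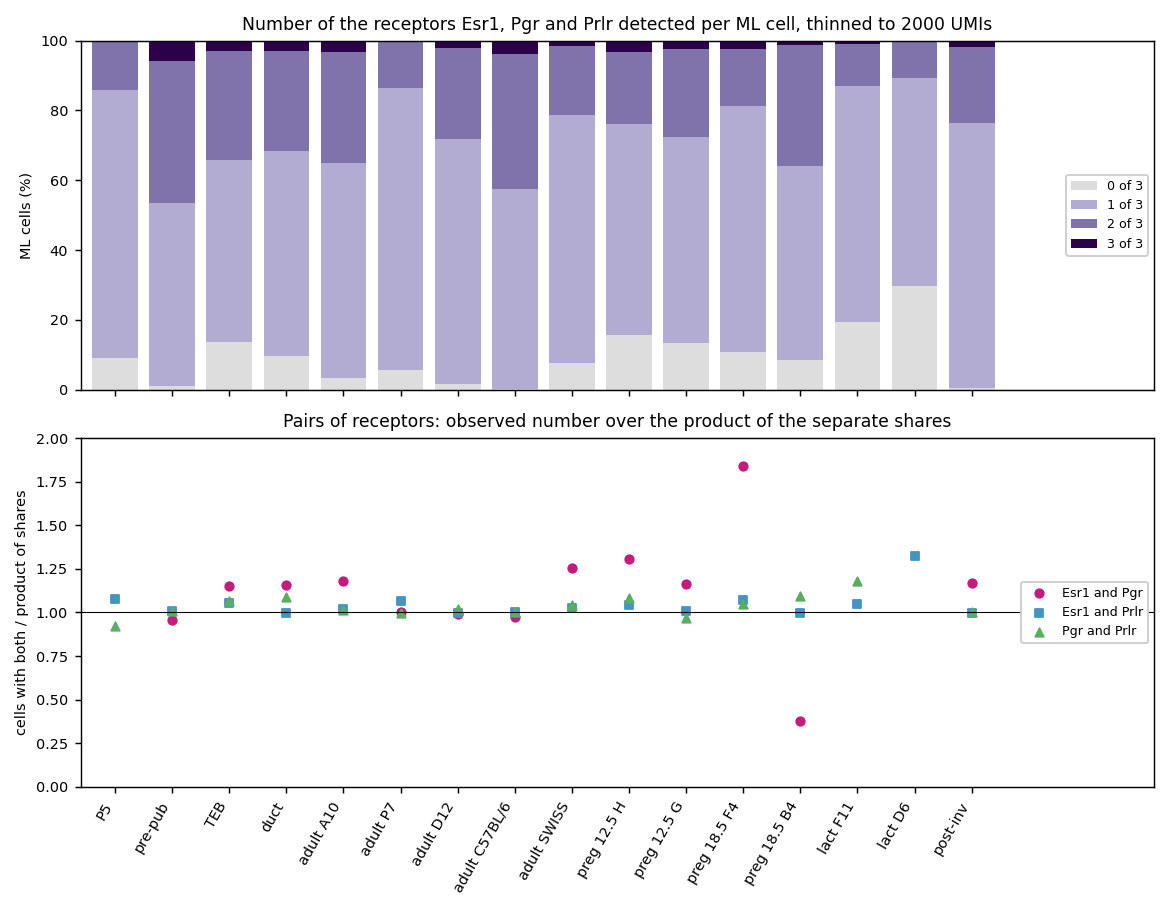
Upper panel, percent of ML cells (thinned to 2000 UMIs) with 0, 1, 2 or 3 of Esr1, Pgr and Prlr in each of the 16 postnatal libraries. Lower panel, ratio of observed to expected cells with both receptors of a pair, 1 point per library where at least 3 cells were expected (13, 16 and 15 libraries for Esr1 with Pgr, Esr1 with Prlr and Pgr with Prlr); the medians are 1.16, 1.02 and 1.02, with the widest spread for Esr1 with Pgr (0.376 to 1.84). The ratios with Prlr must lie near 1 where nearly all ML cells have it.

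ML cells with both receptors of a pair were about as frequent as the product of the single shares in ML cells gives. For Esr1 with Pgr the ratio of observed to expected cells had a median of 1.155 over the 13 libraries with at least 3 expected cells (0.376 to 1.839, above 1 in 9), with 535 cells seen in all against 496.2 expected. For Esr1 with Prlr the median ratio was 1.024 (16 libraries, above 1 in 11), and for Pgr with Prlr it was 1.018 (15 libraries, above 1 in 12). This did not hold in LP/alveolar cells, again where at least 3 cells were expected. There the ratio for Pgr with Prlr ran from 1.77 before puberty to 3.54 after involution, with 265 cells against 134.2 expected in adult C57BL/6. For Esr1 with Prlr it ran from 0.66 in adult D12 to 3.08 at postnatal day 5. Before puberty all 116 Esr1-positive and all 61 Pgr-positive ML cells also had Prlr, as did 335 of all 338 ML cells of that library. Prlr was in 69.4 to 99.8% of ML cells, and where nearly all cells have it the ratios of its pairs must lie near 1. With so few UMIs of Esr1 and Pgr per cell these ratios are descriptions and a ratio near 1 does not show that the receptors are independent.

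Differences between positive and negative ML cells are given as descriptions, with no test, and varied in size and sign between libraries. Over 13 libraries, the share with Pgr was higher in Prlr-positive than in Prlr-negative cells by a median of 6.23 percentage points (-3.09 to 20.2, higher in 10 of 13 libraries) and that with Wnt4, a progesterone target that signals to neighbouring cells, by 6.67 points (-4.73 to 15.5, 11 of 13). The difference of Wnt4 by Prlr was the largest median of all the pairs read. Wnt4 is also 1 of the 10 markers from which the ML clusters were named, and the part of this in the difference was not tested. In Pgr-positive cells Wnt4 was higher by a median of 1.18 points (-9.91 to 7.03). Tnfsf11 and Calca, also steroid targets, had medians of 0 (-4.76 to 5.11 and -15.8 to 4.09). Both were near 0 in ML cells of virgin FVB/NJ adults (0.824 to 14.5 CPM and 0 to 26.0 CPM). Medians of 0 thus do not show that they are unrelated to Pgr. The Gata3 share was higher by 3.52 points in Pgr-positive cells (-6.13 to 8.82, 10 of 13) and by 3.95 points in Esr1-positive cells (-12.9 to 17.5, 10 of 13). The Cited1 share was lower in Esr1-, Pgr- and Prlr-positive cells in 7, 8 and 7 of 13 libraries. Of 2 markers of dividing cells, Mki67 had a median difference of -1.485 points in Esr1-positive cells (lower in 11 of 13) and Top2a one of 0.331 points (lower in 6 of 13 and higher in 7).

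Other genes of the same pathways were read from lists of coregulators (14 genes), other hormone receptors (16), steroid hormone targets (8) and prolactin receptor signalling (9). In ML cells at pregnancy day 12.5, where 7.29% of all genes were called, 2 of 7 tested steroid targets were higher, 1 was lower and 4 did not pass, with a list median of 0.75 against -0.08 over all genes. Tnfsf11 (RANKL), the progesterone target that signals to neighbouring progenitors, was 468 and 555 CPM in the pregnant libraries and 0.824 to 14.5 CPM in the adults (6.73 ± 1.24, adjusted p = 0.00819). Calca (calcitonin) was 3390 and 3840 CPM against 0 to 26.0 CPM (adjusted p = 0.0363), and Stc2 was 0.91 and 6.40 CPM against 241 to 2610 CPM (adjusted p = 0.00552).

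Genes of prolactin signalling in ML cells went in both directions at day 12.5, with 2 of 9 higher, 2 lower and 5 that did not pass. Socs2, a feedback inhibitor induced by Stat5, was 494 and 528 CPM against 45.0 to 64.6 CPM (3.23 ± 0.40, adjusted p = 0.000813), and Elf5, the alveolar transcription factor, was 45.6 and 56.4 CPM against 6.27 to 12.4 CPM (2.42 ± 0.46, adjusted p = 0.00922). Elf5 is also 1 of the 8 LP/alveolar markers. Of thinned cells of the 3 classes, LP/alveolar cells were 23.8 to 26.6% in these adults. They were 55.8% and 35.7% at day 12.5 and 68.3% and 51.9% at day 18.5. Their part in the Elf5 values of ML cells was not tested. The phosphatase gene Ptpn1 was lower (-2.05 ± 0.44, adjusted p = 0.0172). At day 18.5, where 8.55% of all genes were called, 3 of 9 were higher and none lower, Socs2 (3.1 ± 0.40), Elf5 (2.22 ± 0.45) and Cish (1.60 ± 0.38, adjusted p = 0.0275). Of 7 steroid targets 1 was higher and 3 lower at that day, among them Areg, the estrogen-induced growth factor, at 26.5 and 44.5 CPM against 1470 to 3190 CPM (-6.05 ± 0.96, adjusted p = 0.00251), and Ccnd1 (cyclin D1) at 8.65 and 11.5 CPM against 74.6 to 174 CPM (-3.72 ± 0.48, adjusted p = 0.000754).

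Of the other hormone receptors in ML cells, 1 of 10 was higher and 1 lower at day 12.5, and 3 of 10 were higher at day 18.5. Of all genes 7.29% and 8.55% were called at these days. Esrrb, an orphan receptor related to the estrogen receptors, was higher at both days (3.49 ± 0.49, adjusted p = 0.0017, and 4.12 ± 0.49, adjusted p = 0.000384). The thyroid hormone receptor gene Thra was lower at day 12.5 (-1.84 ± 0.37, adjusted p = 0.0126), and the growth hormone receptor gene Ghr (2.39 ± 0.40, adjusted p = 0.00331) and the vitamin D receptor gene Vdr (2 ± 0.49, adjusted p = 0.029) were higher at day 18.5. None of the 14 coregulators was called in ML cells at either day with edgeR. Between the later stages 0% of all genes were called in ML cells, so no gene of the 4 lists was.

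At day 18.5 in LP/alveolar cells, where 20.2% of all genes were called, genes of all 4 lists passed the test. Of prolactin signalling genes 4 of 9 were higher and 2 lower, with Stat5a (1.48 ± 0.32, adjusted p = 0.011), Stat5b (1.40 ± 0.28, adjusted p = 0.00897) and Cish (1.57 ± 0.35, adjusted p = 0.0125) higher. Of steroid targets 4 of 7 were lower and none higher, including Areg at 0.291 and 0.869 CPM against 80.1 to 116 CPM (-7.43 ± 0.86, adjusted p = 0.000745) and Ccnd1 (-2.51 ± 0.60, adjusted p = 0.0174). Areg and Stc2 of this list are also among the 8 of 10 ML markers that were lower in these cells, and the part of those markers in the result was not tested. Of other hormone receptors 5 of 13 were higher and 2 lower, with Ghr at 59.8 and 67.0 CPM against 8.65 to 14.1 CPM (2.62 ± 0.29, adjusted p = 0.000601) and Igf1r, the insulin-like growth factor receptor gene, at 2.56 and 2.98 CPM against 12.2 to 26.4 CPM (-2.92 ± 0.37, adjusted p = 0.00121). The coactivator gene Ncoa3 was higher (2.02 ± 0.32, adjusted p = 0.00304), and 2 of 14 coregulators were higher in all. The list medians were 0.62, -2.67, 0.28 and 0.17 for prolactin signalling, steroid targets, other receptors and coregulators, against -0.02 over all genes.

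At day 12.5 fewer of these genes were called in LP/alveolar cells, as over all genes (13.1%). Areg was already at 2.21 and 2.26 CPM (-5.54 ± 0.77, adjusted p = 0.00338), and 2 of 7 steroid targets were lower in all. Of other hormone receptors 3 of 13 were lower, among them Igf1r (-1.84 ± 0.35, adjusted p = 0.011). Of 9 prolactin signalling genes Stat5b was higher (1.01 ± 0.28, adjusted p = 0.0443) and Socs3, an inhibitor of cytokine signalling, was lower (-2.47 ± 0.52, adjusted p = 0.0154), and of 14 coregulators Ncoa3 was higher (1.15 ± 0.32, adjusted p = 0.0417). Ghr was higher at day 18.5 than at day 12.5 (3.20 ± 0.34, adjusted p = 0.00388). From day 18.5 to lactation Socs2 (2.32 ± 0.41, adjusted p = 0.0146) was higher and Tfap2c was lower (-1.37 ± 0.32, adjusted p = 0.0481), values after TMM scaling in a comparison where no scaling moved the median of all genes to -1.78.

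The genes whose pattern was most like that of each receptor were read from 51 sums, 1 for each of the 3 classes of the 17 mammary libraries, over 7610 genes with a mean of at least 10 CPM, by Pearson's r of log2(CPM + 1). For Esr1 they were Syt7 (r = 0.912), Foxa1 (0.908) and Prlr (0.903), so 2 of the 3 nearest were members. For Pgr they were Agtrap (0.878), Mgat5 (0.878) and Tspan9 (0.867). For Prlr they were Tmem56 (0.971), Dnajc12 (0.94) and BC030870 (0.926). The sums share libraries and the split into classes, so these values describe likeness only.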

How the data were processed

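The authors sequenced droplet libraries from pooled mice on a NextSeq instrument (10x v2 kit by the study's methods, although the deposited barcodes of adult P7 have 14 bases and all others 16) and counted UMIs per gene and barcode with Cell Ranger. The submitters' processing notes name Cell Ranger 3.1.0 and mm10. The deposited matrices hold raw UMI counts, not normalized, for 31053 features. The 7 genes, the context lists and the tests were chosen with earlier results of these data known.

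Cells with 500 or more detected genes were used, within the upper limits on genes, counts and mitochondrial share that the study set for each library. Libraries were clustered in 4 sets with Seurat 5.3.0 anchors at a resolution of 0.1, and clusters were named from fixed markers. The variable genes left out the 7 genes, the context lists, and cell cycle, milk, mitochondrial and ribosomal genes. Of 123574 classed cells 6435 stayed unnamed (0 to 29.4% per library). Doublets were not removed in the main values. Scrublet (scanpy 1.11.5) scored the FVB/NJ libraries, and an alternative left out the 5% of cells with the highest scores. Cells were thinned to 2000 UMIs without replacement. Shares have exact Clopper-Pearson intervals and levels exact Poisson intervals, both at 95% and for counting error only.

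Counts were summed per library and class (20 or more cells) and tested over the 9 FVB/NJ libraries of the 4 replicated stages with edgeR 4.0.16 (R 4.3.3; quasi-likelihood, TMM, filterByExpr, 1 fit per class), with Benjamini-Hochberg adjustment and a threshold of 0.05. The fit was tested on simulated counts. DESeq2 1.42.0, other scalings, no filter on low counts, stricter cell filters, another cluster resolution (0.2), milk genes left out, other thinning depths (1000 and 3000 UMIs) and leaving out each library were the alternatives. The comparison of changes between classes was added after the data were seen. In the context lists up to 3 called genes with the smallest adjusted p per comparison and class could be named, and in the pattern search the 3 genes with the highest r. The results of 1 further gene of the context lists, which enters their counts, are not reported here. Classes of 1 library per stage or strain were not tested. Bulk RNA and chromatin profiles of the study were not used here.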

Additional observations from a re-analysis of the deposited data

Results flagged for a closer look

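The change from virgin adult to pregnancy differed between cell classes for several members, by a test of the difference itself (edgeR, 1 fit over the 3 classes with library as a block). In LP/alveolar minus ML cells at pregnancy day 12.5 the log2 difference was -1.58 for Esr1, -4.42 for Pgr, -3.90 for Foxa1, -4.57 for Cited1 and -3.89 for Tbx3. At day 18.5 it was -4.55 for Pgr, -3.05 for Foxa1, -4.49 for Cited1 and -4.42 for Tbx3. In basal minus ML cells it was -1.51 for Esr1, -2.84 for Prlr and -3.59 for Foxa1 at day 12.5, and -2.60 for Prlr and -5.28 for Foxa1 at day 18.5. Some of these calls were lost in other fits. Esr1 in both classes and Prlr in basal cells at day 12.5 were lost without H or without G, and Prlr in basal cells at day 18.5 without B4 or without the cells of highest doublet score. ML markers moved in the same direction, with 8 of 10 lower in LP/alveolar cells and 3 of 9 in basal cells at each day, and their part in the result was not tested. The Foxa1 value in basal cells at day 18.5 is a fitted one, since Foxa1 had 1 UMI in the basal cells of each day 18.5 library.

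The E18.5 skin library, which enters no comparison, held counts of all 7 genes. Over its 9025 cells there were 466 UMIs of Esr1, 22 of Pgr, 399 of Prlr, 21 of Foxa1, 828 of Cited1, 336 of Gata3 and 693 of Tbx3. After thinning to 2000 UMIs the shares of positive cells were 1.70% for Esr1, 0.0703% for Pgr, 1.41% for Prlr, 0.0820% for Foxa1, 2.87% for Cited1, 1.01% for Gata3 and 2.99% for Tbx3. Each count is above the 3 that a count of 0 allows, which says only that UMIs were found. No background share was measured in skin, where Pgr and Foxa1 stood at 0.437 and 0.417 CPM.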

How the results depend on the processing

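Of the results on members called per comparison and class and on the shares of cells, 243 recomputed values stayed on their side of the test or within 1.5 times and 44 moved. In basal cells at pregnancy day 12.5, where 1 member was called, DESeq2, no filter on low counts and at least 1000 genes per cell each called 3, no scaling beyond the total called 2, and leaving out high doublet scores called 0. At day 18.5 leaving out high doublet scores called 1 in basal cells, and in the test of basal against ML changes also 1. In lactation no filter called 1 in basal cells. In LP/alveolar cells DESeq2 called 2 members between the days of pregnancy. For lactation against day 18.5 in these cells, no scaling and no filter each called 2, and at least 1000 genes per cell and leaving out the secretory cluster each called 0. In ML cells DESeq2 called 1 at day 12.5 and 1 at day 18.5. The causes were not tested. The only reversed value was that of Prlr in LP/alveolar cells from day 18.5 to lactation, which was -1.21 without scaling beyond the total, a setting that moved the median of all genes to -1.78.

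Leaving out 1 library at a time gave 0 to 6 members in LP/alveolar cells at day 12.5, 4 to 5 at day 18.5, 0 to 2 between the days and 0 to 1 in lactation; 0 to 3 in basal cells at each day of pregnancy; and 0 to 2 and 0 to 1 in ML cells at day 12.5 and day 18.5. In the test of differences from ML cells it gave 4 to 5 and 4 to 4 for LP/alveolar cells and 1 to 4 and 1 to 3 for basal cells at the respective days. The other comparisons stayed at 0. The range between stage means of the share of ML cells with 2 or more receptors was 15.4 points, 13.8 to 24.1 without 1 library, 8.3 at 1000 UMIs and 21.9 at 3000 UMIs, with no permutation p under 0.05.

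No scaling beyond the total moved the share of called genes that were higher from 46.4% to 28.3% in LP/alveolar cells at day 12.5, from 52.5% to 12.8% at day 18.5, from 84.1% to 25.5% between the days and from 70.2% to 2.07% in lactation, from 87.9% to 59.1% in basal cells in lactation, and from 60.4% to 75.9% in ML cells at day 18.5. Called genes differed by over 1.5 times from the main count in several fits. In basal cells they were 624 with DESeq2, 1082 with no filter, 272 when requiring 1000 genes per cell and 93 when leaving out high doublet scores at day 12.5 (160), 917 and 1216 with DESeq2 and no filter at day 18.5 (423), 165 and 357 between the days (0; 13 with at least 1000 genes per cell), and 283 and 478 in lactation (66). In LP/alveolar cells they were 3013 with no filter at day 12.5 (1809), 5098 with no scaling at day 18.5 (2793), 863, 330 and 1047 with DESeq2, no scaling and no filter between the days (138), and 980, 10328 and 1378 in lactation (440; 287 without the secretory cluster). In ML cells they were 1423 and 1509 with no filter at day 12.5 (657) and day 18.5 (771), 70 and 138 with DESeq2 and no filter between the days (0), and 67 and 230 in lactation (0; 4 with no scaling).

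No paired analysis was possible because the labels give the libraries of different stages no shared replicate numbers. Depth limits the values of Pgr, Foxa1 and Tbx3 in LP/alveolar cells and of Foxa1 in basal cells in pregnancy, which rest on few UMIs, and the ML class of pregnancy and lactation, which held 183 to 376 cells per library. The study's methods name adult and post-involution FVB/NJ glands as processed together and give no such note for the pregnancy and lactation libraries, so for these stage and processing cannot be told apart.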
